A study of Mus musculus with 16 samples.

Results

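Il4, Il5, Il9, and Il13 encode the type 2 cytokines IL-4, IL-5, IL-9, and IL-13, and their mRNA was followed across 4 treatments and 2 genotypes of mouse lung group 2 innate lymphoid cells (ILC2s). The 4 genes were chosen by symbol, with earlier results of these data known, and were found among the 51912 genes of the deposited count table. All 4 passed the filter on low counts and were among the 14979 genes tested. ILC2s came from WT mice and from Pac1-/- mice, which lack the phosphatase PAC1 encoded by Dusp2 in all cells, and the study used mice of 6 to 8 weeks. The cells were treated for 4 hours with IL-7 alone, with IL-7 and the alarmin IL-33, with IL-7, IL-33, and calcitonin gene-related peptide (CGRP), or with IL-7, IL-33, and neuromedin U (NMU). Every group therefore received IL-7, and no library held unstimulated cells. The treatments are called IL-7, IL-33, CGRP, and NMU below. Each of the 8 groups had 2 libraries, 16 in all, each made from about 500 sorted ILC2s. The study's culture method describes an expansion of 1 to 2 weeks with IL-2 and IL-7 before stimulation, without saying whether it was used for these libraries.

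ILC2s are tissue-resident lymphocytes that lack antigen receptors and release type 2 cytokines when alarmins from the epithelium reach them. IL-5 recruits and sustains eosinophils, IL-13 drives mucus production and airway hyperreactivity, IL-4 promotes IgE class switching and alternative macrophage activation, and IL-9 sustains mast cells and ILC2s themselves. CGRP is a neuropeptide that raises cyclic AMP in ILC2s and is known as a restraint on them, whereas NMU acts through a calcium-coupled receptor and is known as an activator.

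Il4, Il13, and Il5 are neighbours in the type 2 cytokine cluster, and the promoters are shown because the members moved together under NMU and apart under CGRP. On chromosome 11 (GRCm38), Il4 (ENSMUSG00000000869) spans 53602982 to 53618669 and Il13 (ENSMUSG00000020383) 53631324 to 53634702, both on the minus strand. Il5 (ENSMUSG00000036117) follows on the plus strand from 53720794 to 53725106, and the DNA repair gene Rad50 lies between Il13 and Il5. Il9 (ENSMUSG00000021538) lies apart, on chromosome 13 from 56479277 to 56482246 on the minus strand. The 250 bases before the RefSeq start site of each gene (GRCm38.p6) are given 5′ to 3′ on the gene's own strand, with matches to 4 motifs in capitals. For Il4, which has 2 RefSeq start sites in the table, the one nearest the annotated end of the gene is printed.
Il4 (chr11:53618666-53618915, minus strand): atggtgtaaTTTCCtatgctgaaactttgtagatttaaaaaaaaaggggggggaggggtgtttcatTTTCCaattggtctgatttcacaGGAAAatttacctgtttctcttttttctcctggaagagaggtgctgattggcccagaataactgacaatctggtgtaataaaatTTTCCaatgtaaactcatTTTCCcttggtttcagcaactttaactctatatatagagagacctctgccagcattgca
Il13 (chr11:53634703-53634952, minus strand): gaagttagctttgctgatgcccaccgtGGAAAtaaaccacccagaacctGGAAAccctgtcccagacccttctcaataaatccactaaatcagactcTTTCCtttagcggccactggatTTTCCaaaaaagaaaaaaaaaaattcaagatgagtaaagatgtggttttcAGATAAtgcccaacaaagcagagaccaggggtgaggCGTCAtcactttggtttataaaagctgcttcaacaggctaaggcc
Il5 (chr11:53720544-53720793, plus strand): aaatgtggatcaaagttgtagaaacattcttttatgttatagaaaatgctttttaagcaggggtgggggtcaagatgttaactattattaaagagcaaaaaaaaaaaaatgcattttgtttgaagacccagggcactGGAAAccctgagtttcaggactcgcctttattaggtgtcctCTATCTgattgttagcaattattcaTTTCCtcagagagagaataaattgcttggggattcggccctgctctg
Il9 (chr13:56482258-56482507, minus strand): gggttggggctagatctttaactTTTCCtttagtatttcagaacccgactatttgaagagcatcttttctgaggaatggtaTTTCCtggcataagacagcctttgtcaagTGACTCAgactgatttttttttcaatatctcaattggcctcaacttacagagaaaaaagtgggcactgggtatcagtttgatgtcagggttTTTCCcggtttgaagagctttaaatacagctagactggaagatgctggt

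The motifs searched on both strands were the core GGAAA bound by the calcium-regulated NFAT factors, the GATA site in the forms AGATAA or AGATAG and also TGATAA or TGATAG, the AP-1 site TGANTCA, and the half-site TGACG of the cyclic AMP response element. The NFAT core occurred 5 times before Il4, 4 times before Il13, 3 times before Il9, and 2 times before Il5, and 55.6% of the 32851 RefSeq promoter windows of this length held at least 1. A GATA site was found 81 bases before the start of Il13 and 72 bases before that of Il5, and 26.5% of all windows held one. The printed Il4 window held none, but the window of its other start site held one 80 bases before the start and no NFAT core. The CRE half-site was found in the Il13 window only, 45 bases before the start (17.8% of all windows). The AP-1 site was found in the Il9 window only, 140 bases before the start (6.75% of all windows). These are letter matches and no binding was measured.

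The libraries held 6764992 to 15963357 counts on genes, and levels are given as CPM, which scales each library to 1000000 counts with TMM factors. On this scale, 3 counts in a library equalled between 0.188 and 0.443 CPM. The ILC2 markers Gata3, Rora, Id2, Il1rl1, Il7r, Il2ra, Klrg1, Icos, and Ptprc were abundant in all 16 libraries, and Il17rb had at least 3 counts in 13. Of the T cell markers, Cd4, Cd8a, and Cd5 were at or near 0 while Cd3g had 29.8 to 256 CPM, and the sum of the 8 T cell markers was 247 to 345 CPM with IL-7 and 35.6 to 176 CPM in the other treatments. Mitochondrial genes took 8.60% to 10.2% of counts with IL-7, 3.94% to 7.96% with IL-33, 8.30% to 12.6% with CGRP, and 3.32% to 5.54% with NMU. No count of Dusp2 was found in 8 of the 8 libraries from Pac1-/- mice, nor in 6 of the 8 from WT mice, so it could not check the genotype of most of them. In bulk libraries, fewer cells expressing a gene and less RNA per cell cannot be told apart. The 2 libraries of a group agreed only in part. Their log2 counts correlated at 0.565 (WT CGRP) to 0.795 (WT NMU), with 0.595 for Pac1-/- CGRP. Nothing states that the 2 libraries of a group came from separate animals, so P values measure the spread between libraries, which may be technical.

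Il5 was by far the most abundant of the 4 mRNAs. Scaled by exon length, it made up a median of 86.2% of the summed level of the 4 genes (CPM per kilobase) with IL-7, 92.5% with IL-33, 98.3% with CGRP, and 69.0% with NMU (n = 4 libraries per treatment). Il9 had medians of 13.1%, 6.69%, 0.214%, and 29.7% in the same order, and held most of the remainder except with CGRP. There Il4 held more than Il9, with a median of 1.38%, the highest of Il4 or Il13 in any treatment. With CGRP the mixture was thus nearly all Il5, and with NMU it was Il5 and Il9. The level of Il4 per kilobase depends on the length used, since its annotated exons cover 1227 bases and its longest transcript 605.

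**Figure D1:**
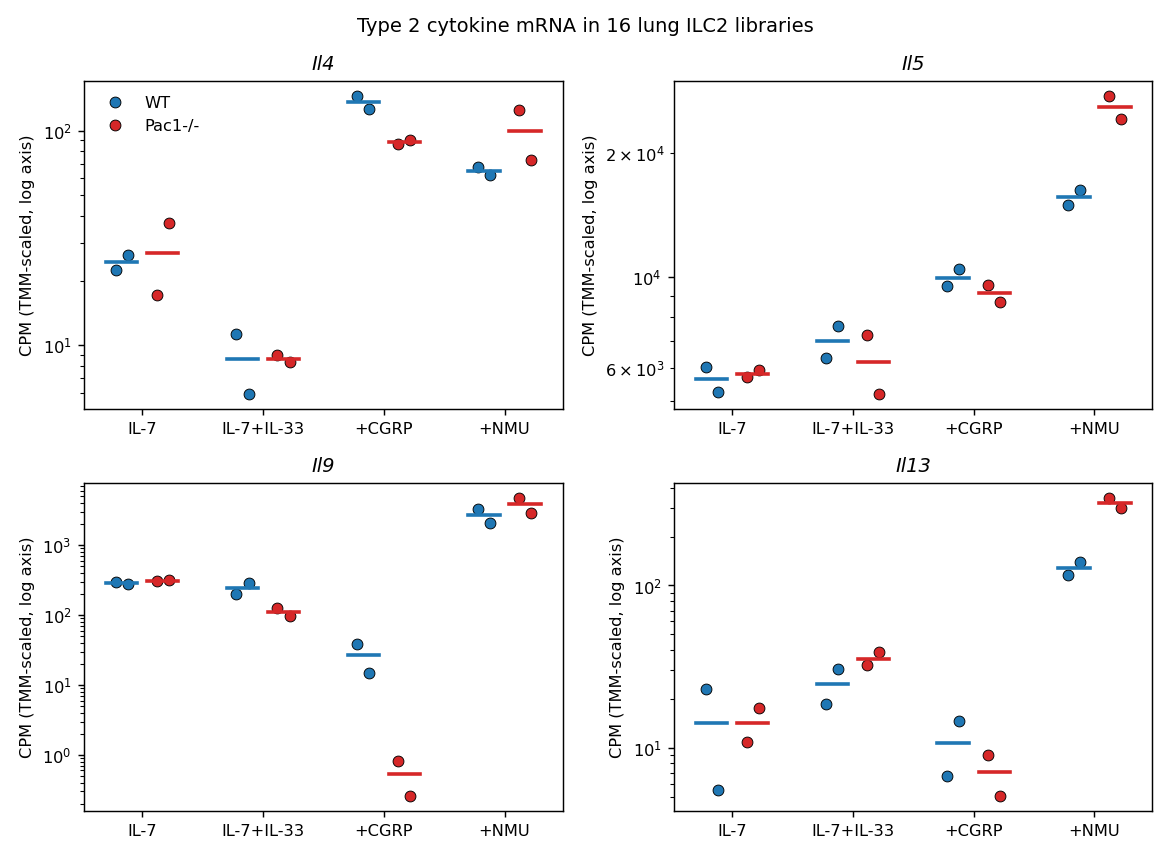
CPM of Il4, Il5, Il9, and Il13 (TMM-scaled, log axis) in the 2 WT (blue) and 2 Pac1-/- (red) libraries of each treatment, with a bar at the group mean. Il5 runs from 5192 to 27499.8 CPM, whereas Il9 runs from 0.259 CPM with CGRP to 4795 CPM with NMU, and Il4 and Il13 part under CGRP.

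Il5 encodes the eosinophil growth factor of ILC2s. WT libraries had 6053 and 5253 CPM with IL-7, 6348 and 7623 with IL-33, 9488 and 10431 with CGRP, and 14988 and 16226 with NMU. Pac1-/- libraries had 5711 and 5932 CPM with IL-7, 7246 and 5192 with IL-33, 9555 and 8699 with CGRP, and 27499.8 and 24154 with NMU. The IL-7 and IL-33 libraries overlapped, every CGRP library was above every IL-33 library, and every NMU library was above every CGRP library. Over both genotypes, Il5 rose 3.05-fold from IL-33 to NMU (log2 fold change 1.61, SE 0.137, adjusted P = 0.000137). It was 1.45-fold higher with CGRP than with IL-33 (log2 fold change 0.53, SE 0.134), just outside the cutoff of a fold above 1.5 and an adjusted P under 0.05 (adjusted P = 0.0545), which it passed without Pac1-/- IL-33 replicate 1 (0.66, adjusted P = 0.0238). The adjusted P values come from the quasi-likelihood F test of edgeR, adjusted over all genes tested by the Benjamini-Hochberg method. From CGRP to NMU it rose 2.11-fold (log2 fold change 1.07, SE 0.135, adjusted P = 0.000593). The order of treatments by level was IL-7, IL-33, CGRP, and NMU, and of the neighbours in that order only CGRP and NMU differed past the cutoff.

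Il13 encodes the cytokine of mucus and airway hyperreactivity. WT libraries had 22.9 and 5.50 CPM with IL-7, 18.7 and 30.5 with IL-33, 6.68 and 14.6 with CGRP, and 115 and 140 with NMU. Pac1-/- libraries had 10.8 and 17.5 CPM with IL-7, 32.3 and 38.7 with IL-33, 9.03 and 5.04 with CGRP, and 348 and 301 with NMU. The CGRP libraries all lay below the IL-33 libraries and overlapped those of IL-7, and the NMU libraries all lay above every other library. Over both genotypes, Il13 fell 3.41-fold from IL-33 to CGRP (log2 fold change -1.77, SE 0.431, adjusted P = 0.0461). It rose 6.89-fold from IL-33 to NMU (log2 fold change 2.78, SE 0.441, adjusted P = 0.0244) and 23.5-fold from CGRP to NMU (adjusted P = 0.000163). The fall with CGRP lay close to the cutoff and no longer passed it without any 1 of 13 of the 16 libraries (adjusted P up to 0.145) or when only the 8 libraries of that comparison were fitted (adjusted P = 0.184). The rise from IL-33 to NMU missed the cutoff without any 1 of the 8 IL-33 or NMU libraries, with adjusted P up to 0.171 and a log2 fold change of 2.63 to 2.98.

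Il4 encodes the cytokine of IgE switching. WT libraries had 22.5 and 26.4 CPM with IL-7, 11.3 and 5.91 with IL-33, 145 and 126 with CGRP, and 68.0 and 61.9 with NMU. Pac1-/- libraries had 17.1 and 36.9 CPM with IL-7, 8.996 and 8.32 with IL-33, 86.9 and 90.2 with CGRP, and 125 and 73.3 with NMU. Il4 was thus lowest with IL-33, where no library reached the lowest IL-7 library, and both neuropeptide treatments lay above all IL-7 and IL-33 libraries. Over both genotypes, Il4 rose 12.7-fold from IL-33 to CGRP (log2 fold change 3.66, SE 0.355, adjusted P = 9.08e-05) and 9.27-fold from IL-33 to NMU (log2 fold change 3.21, SE 0.348, adjusted P = 0.0013). CGRP and NMU overlapped and differed by a log2 fold change of -0.45, with a 95% interval of -1.14 to 0.24 (adjusted P = 0.474). Against IL-7 alone, the rises were 4.26-fold with CGRP (adjusted P = 0.0045) and 3.12-fold with NMU (adjusted P = 0.0393). The rise with NMU over IL-7 missed the cutoff without any 1 of 9 libraries (adjusted P up to 0.146), and with the replicate block (adjusted P = 0.0591).

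Il9 encodes the growth factor of mast cells that also sustains ILC2s. WT libraries had 297 and 283 CPM with IL-7, 203 and 289 with IL-33, 38.1 and 15.03 with CGRP, and 3286 and 2085 with NMU. Pac1-/- libraries had 304 and 315 CPM with IL-7, 127 and 97.0 with IL-33, 0.812 and 0.259 with CGRP, and 4795 and 2935 with NMU. The treatments did not overlap except IL-7 with IL-33, and the CGRP libraries of Pac1-/- ILC2s had only 8 and 2 counts. Over both genotypes, Il9 fell 42.6-fold from IL-33 to CGRP (log2 fold change -5.41, SE 0.377, adjusted P = 1.7e-05) and rose 19.4-fold from IL-33 to NMU (log2 fold change 4.28, SE 0.33, adjusted P = 6.1e-05). The fall with CGRP was 9.23-fold within WT ILC2s (adjusted P = 0.00667). In Pac1-/- ILC2s the summed counts were 3422 with IL-33 and 10 with CGRP, a ratio of 202 after scaling to depth with a 95% counting interval of 110 to 422. Intervals of this kind cover counting error only, since amplified reads are not independent molecules.

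IL-33 itself, set against IL-7 alone, moved none of the 4 genes past the cutoff, and it moved 0.0334% of all genes tested past it. The log2 fold changes over both genotypes were -1.57 for Il4 (95% interval -2.28 to -0.86, adjusted P = 0.214), -0.85 for Il9 (-1.48 to -0.22, adjusted P = 0.396), 1.05 for Il13 (0.15 to 1.96, adjusted P = 0.454), and 0.20 for Il5 (-0.089 to 0.49, adjusted P = 0.67). The Il4 libraries of these treatments did not overlap, and those of the other 3 genes did. The share of all genes whose libraries did not overlap was not counted, for these or any other treatments. Il4 passed the cutoff with DESeq2's Wald test (adjusted P = 0.00115) and with no filter on low counts (adjusted P = 0.034). The summed level of 6 NK cell and ILC1 markers was 118 to 240 CPM in the IL-7 libraries and 0 to 5.30 CPM with IL-33. Most of the sum with IL-7 came from Gzma, which reached 222 CPM. The next highest marker, Klrb1c, reached 15.1 CPM, and Tbx21 was at 0 in both treatments. The part of these markers in these differences was not tested.

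Against IL-33, CGRP moved 3 of the 4 genes past the cutoff, Il4 upward and Il9 and Il13 downward, where 2.76% of all genes passed it. Summed markers of some other cell types did not overlap between these treatments either. B cell markers had 35.4 to 281 CPM with CGRP and 5.71 to 17.5 with IL-33, epithelial markers 11.2 to 25.1 and 42.2 to 83.3, and ILC3 markers 0 to 1.25 and 4.91 to 15.1. Those of T cells, mast cells and basophils, NK cells and ILC1s, myeloid cells, and eosinophils overlapped. The ILC2 markers summed to 12031.6 to 13553.5 CPM with CGRP and 9823 to 11754 with IL-33. The part of any of these markers in the result was not tested. NMU moved 4 of 4 upward, where 0.187% of all genes passed it in either direction and 0.154% upward. Both comparisons use the same 4 IL-33 libraries, so they are not independent. The 4 genes were chosen with earlier results of these data known, so the shares of all genes are a description and not a test. Set directly against each other, the neuropeptides differed in 3 of the 4 genes, all higher with NMU, where 5.47% of all genes passed the cutoff and 2.84% were higher. The median log2 fold change of the 4 genes was 2.999 for NMU against IL-33, beside -0.079 for all genes tested, and -0.62 for CGRP against IL-33, beside -0.091 for all genes. Against IL-7 alone, NMU raised 4 of 4 (0.734% of all genes passed, 0.401% upward) and CGRP raised Il4 and Il5 and lowered Il9 (2.64% of all genes passed). The rise of Il5 with CGRP over IL-7 missed the cutoff without WT IL-7 replicate 2 (adjusted P = 0.0705) or either Pac1-/- IL-7 library (0.0602 and 0.0508).

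**Figure D2:**
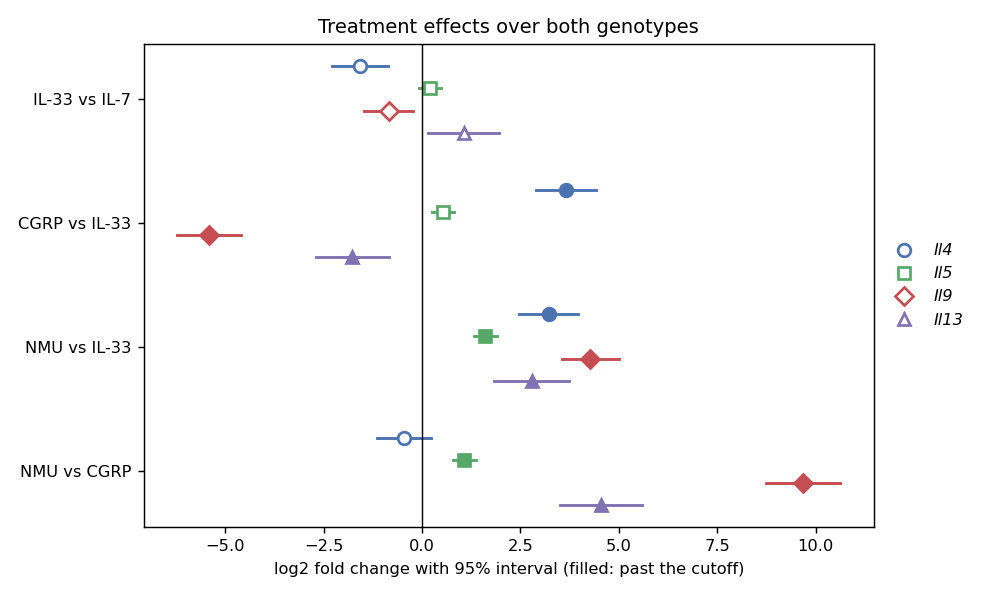
Log2 fold changes over both genotypes with 95% intervals for 4 treatment comparisons, with filled symbols past the cutoff. CGRP against IL-33 spreads the genes from -5.41 (Il9) to 3.66 (Il4), whereas NMU against IL-33 places all 4 between 1.61 and 4.28.

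Because 2 genes counted in 1 library share its depth and scaling, ratios between them do not depend on the normalization. The log2 ratio of Il4 to Il13 was -0.025 to 2.25 with IL-7, -2.36 to -0.72 with IL-33, 3.10 to 4.43 with CGRP, and -2.04 to -0.76 with NMU. In counts, Il4 exceeded Il13 in all CGRP libraries and Il13 exceeded Il4 in all IL-33 and NMU libraries. The genes lie side by side. The order depends in part on the length used. Per kilobase of the longest transcript, Il4 was higher in WT IL-33 replicate 1 (18.7 against 15.5 CPM). The same held in WT NMU replicate 1 (112 against 95.7 CPM), while Il13 stayed higher in the other IL-33 and NMU libraries. The mean ratio was 5.52 log2 units higher with CGRP than with IL-33 (two-sided exact permutation test, P = 0.0286, the smallest that 4 against 4 libraries allow, adjusted P = 0.0381 over 24 comparisons). That P was fixed in advance, since every CGRP library lay above every IL-33 library for Il4 and below every one for Il13. It therefore adds no support beyond those levels. Between NMU and IL-33 the difference was 0.42, with overlapping libraries (exact permutation test, P = 0.40, adjusted P = 0.40). The log2 ratio of Il5 to Il9 was 7.96 to 14.7 with CGRP and 2.19 to 3.04 with NMU, a mean difference of 8.71 (exact permutation test, P = 0.0286, adjusted P = 0.0381). This P too was fixed in advance, since Il9 separated these treatments by far more than Il5 did, and it adds no support beyond the levels.

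**Figure D3:**
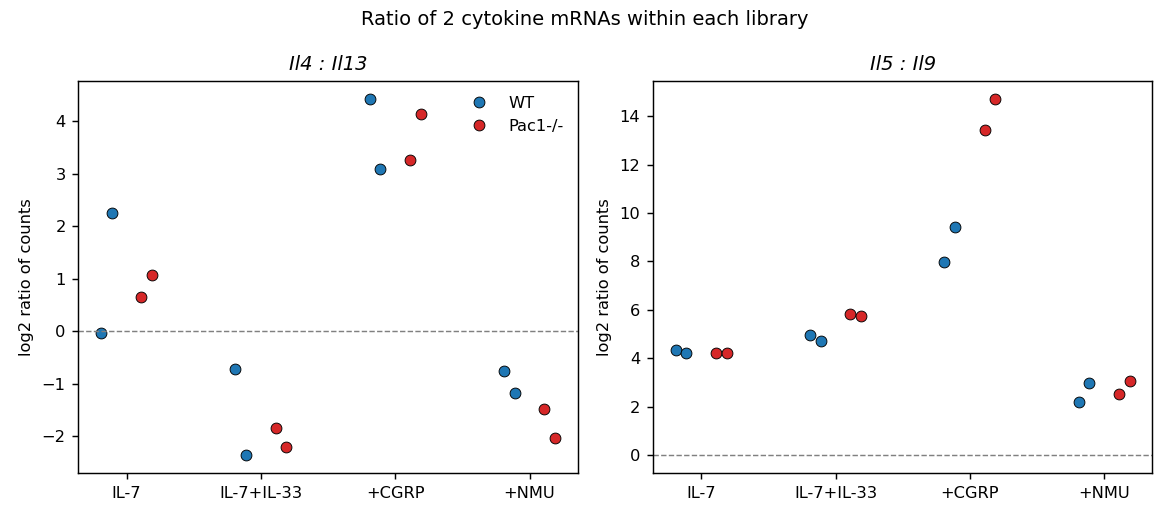
Log2 ratio of the counts of Il4 to Il13 (left) and of Il5 to Il9 (right) in each library by treatment, WT in blue and Pac1-/- in red. The 4 CGRP libraries stand at 3.10 to 4.43 on the left and 7.96 to 14.7 on the right, above those of every other treatment.

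Within WT ILC2s alone, CGRP against IL-33 moved Il4 (log2 fold change 3.97, adjusted P = 0.00432) and Il9 (-3.21, adjusted P = 0.00667) past the cutoff, where 0.461% of all genes passed it. Within Pac1-/- ILC2s alone, the same genes passed, with Il4 at 3.35 (adjusted P = 0.00621) and Il9 at -7.62 (adjusted P = 8.37e-05), where 1.14% of all genes passed. Il13 had log2 fold changes of -1.21 in WT and -2.33 in Pac1-/- ILC2s, neither past the cutoff (adjusted P = 0.515 and 0.11), although the Pac1-/- value passed with DESeq2 (0.00506), with no filter (0.00283), and when every library needed 10 counts (0.033). NMU against IL-33 moved 1 of 4 genes past the cutoff in WT (Il9, log2 fold change 3.45, adjusted P = 0.0304, 0.0134% of all genes passed), and Il4, Il5, and Il13 passed there too with DESeq2 or with no filter (adjusted P of 0.0223 or less). In Pac1-/- ILC2s it moved 3 of 4, which were Il4 (3.51, adjusted P = 0.0127), Il5 (2.05), and Il9 (5.11), where 0.107% of all genes passed, and Il13 (3.19, adjusted P = 0.125) passed with DESeq2 or with no filter. IL-33 against IL-7 moved none of the 4 in either genotype, but in Pac1-/- ILC2s Il9 passed with no filter (adjusted P = 0.000258) and with DESeq2 (0.0171), and Il4 with DESeq2 (0.0414). Leaving out either IL-33 library of the genotype removed the call of Il4 for CGRP in WT (adjusted P up to 0.0791) and in Pac1-/- ILC2s (up to 0.0694), and Il9 in WT (up to 0.0608). The WT rise of Il9 with NMU missed the cutoff without any 1 of 7 libraries (adjusted P up to 0.659), and the Pac1-/- rise of Il4 with NMU without any 1 of 3 (up to 0.241). With only the 4 libraries compared fitted, the calls of this paragraph were lost (adjusted P of 0.0925 to 0.482) except Il9 with NMU in Pac1-/- ILC2s (0.0412). A gene past the cutoff in only 1 genotype is not shown to differ between them, and the differences of response were tested as interactions.

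Pac1-/- and WT ILC2s were compared within each treatment, which asks whether the cytokine mRNAs differ when the phosphatase is lacking. With CGRP, Il9 was lower in Pac1-/- ILC2s, with 8 and 2 counts against 428 and 137 in WT (log2 fold change -5.55, SE 0.579, adjusted P = 0.00435). Scaled to depth, the summed counts differed 48.9-fold, with a 95% counting interval of 26.4 to 103. It was 1 of 4 genes past the cutoff there, where 0.107% of all genes passed. The difference passed without any 1 of the 16 libraries (log2 fold change -6.63 to -4.72, adjusted P up to 0.0246), but not when the 4 CGRP libraries were fitted alone (adjusted P = 0.552). At least 10 counts in every library would have removed Il9 from the test. In the same libraries, the summed level of 4 B cell markers was 271 to 281 CPM in Pac1-/- and 35.4 to 78.1 CPM in WT ILC2s. That of 6 mast cell and basophil markers was 154 to 219 CPM in Pac1-/- and 315 to 333 CPM in WT, nearly all from Kit and Cpa3, with Mcpt8 and Mcpt4 at 0. The 8 T cell markers summed to 86.4 to 102 CPM in Pac1-/- and 123 to 159 CPM in WT. The part of these in the Il9 difference was not tested.

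The other members did not pass the cutoff between the genotypes in any treatment, where the share of all genes that passed was 0.00668% for IL-7 alone, 0.00668% for IL-33, and 0.0200% for NMU. With NMU, the log2 fold change of Pac1-/- against WT was 0.73 for Il5 (95% interval 0.32 to 1.14, adjusted P = 0.937), 1.34 for Il13 (0.063 to 2.62, adjusted P = 1), and 0.61 for Il4 (-0.37 to 1.58, adjusted P = 1). The Il5 difference passed with no filter on low counts (adjusted P = 0.0177) and with DESeq2 (adjusted P = 0.0452). With IL-33, Il9 had a log2 fold change of -1.13 (95% interval -2.03 to -0.24, adjusted P = 0.95). The T cell markers summed to 35.6 to 64.1 CPM in the Pac1-/- IL-33 libraries and 131 to 166 CPM in the WT ones, and their part was not tested. With CGRP, Il4 had a log2 fold change of -0.61 (-1.59 to 0.36, adjusted P = 0.682) and Il13 one of -0.59 (-1.89 to 0.72, adjusted P = 0.814). With IL-7 alone, all 4 log2 fold changes lay between -0.0096 and 0.14. Their 95% intervals were -1.28 to 1.27 for Il13, -0.83 to 1.12 for Il4, -0.79 to 0.98 for Il9, and -0.37 to 0.45 for Il5.

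**Figure D4:**
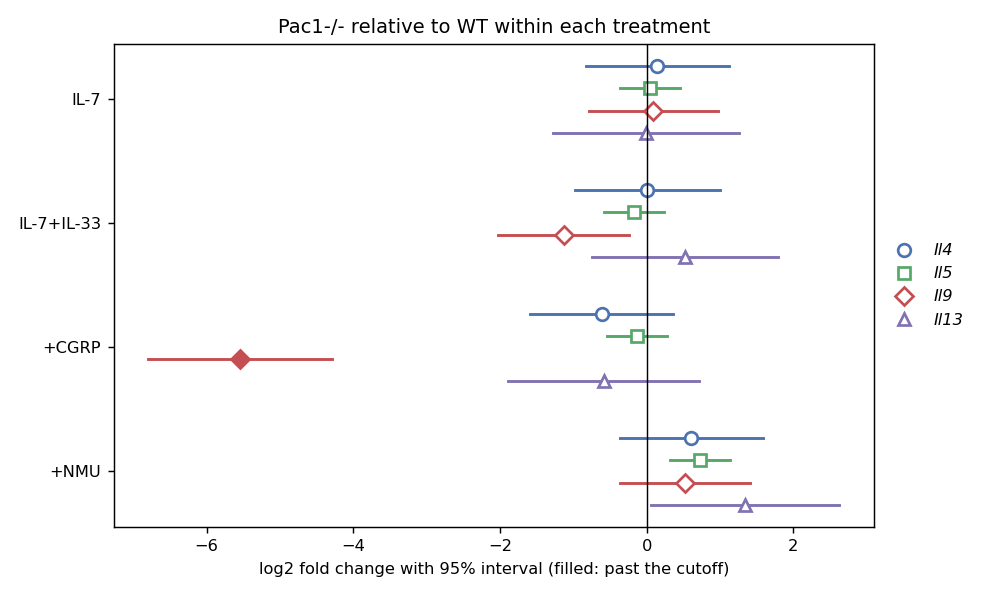
Log2 fold changes of Pac1-/- relative to WT ILC2s with 95% intervals in each treatment, with the filled symbol past the cutoff. Il9 with CGRP stands alone at -5.55, and with IL-7 all 4 estimates lie near 0, with an interval of -1.28 to 1.27 for Il13.

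Averaged over the 4 treatments, Il9 was lower in Pac1-/- ILC2s (log2 fold change -1.52, SE 0.23, adjusted P = 0.0258), where 0.113% of all genes passed the cutoff. This average is made of 0.093 with IL-7, -1.13 with IL-33, -5.55 with CGRP, and 0.53 with NMU, with the CGRP term the farthest from 0. It missed the cutoff without any 1 of 12 of the 16 libraries (adjusted P up to 0.094). The difference between genotypes in the log2 response to CGRP, as Pac1-/- minus WT, was -4.41 for Il9 (SE 0.708, adjusted P = 0.16), -1.12 for Il13 (adjusted P = 0.902), -0.62 for Il4 (adjusted P = 0.986), and 0.042 for Il5 (adjusted P = 1). That of Il9 passed with DESeq2 (adjusted P = 1.42e-06) and with no filter (adjusted P = 8.55e-20), and its adjusted P reached 0.84 when only the libraries of that comparison were fitted. For the response to NMU, the interactions were 1.66 for Il9, 0.89 for Il5, 0.82 for Il13, and 0.60 for Il4, with adjusted P values of 0.912 or more. No gene of the 14979 passed the cutoff for any of the 3 interactions in edgeR with the filter on low counts and all 16 libraries. In that F test, 726, 905, and 813 genes had an unadjusted P under 0.05 for IL-33, CGRP, and NMU. With no effect in any gene, a share of 0.05 of the genes tested would be expected there. With no filter, edgeR called 21, 70, and 53 genes. DESeq2 called 16, 120, and 24.

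The other genes of the pathway came from lists of fixed membership, chosen with earlier results of these data known. Of 8 receptor chains for the 4 cytokines, Il5ra, Il13ra1, and Il13ra2 were too low to test, and 0 of the other 5 passed the cutoff for CGRP or NMU against IL-33. Il2rg, the common gamma chain shared by the IL-4, IL-7, and IL-9 receptors, had 552.6 to 1029 CPM as treatment means, and Il9r had 13.9 to 33.0 CPM. Csf2rb2, a beta chain gene related to that of the IL-5 receptor, was lower with NMU than with CGRP (log2 fold change -3.16, adjusted P = 0.00177). Csf2rb and Csf2rb2 are close paralogs, so reads could be divided between them. Of 7 kinases and STAT factors that act below these receptors, 0 passed in either comparison against IL-33. The share of all genes that passed was 2.76% for CGRP and 0.187% for NMU, so neither 0 of 5 nor 0 of 7 sets these genes apart.

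Among 18 transcription factors linked to type 2 cytokine genes, 16 were tested, and 2 rose and 2 fell with CGRP against IL-33, where 2.76% of all genes passed the cutoff. Junb, an AP-1 subunit, rose from 40.8 ± 22.3 to 346 ± 89.5 CPM (SD, n = 4, log2 fold change 3.10, adjusted P = 0.000248), and Bhlhe40, a repressor of Il10, had a log2 fold change of 1.44. Batf (-1.74) and Irf4 (-2.12), which act together on cytokine genes in T cells, both fell. With NMU against IL-33, 0 of the 16 passed, where 0.187% of all genes did. Between NMU and CGRP, Batf and Irf4 were higher and Junb, Bhlhe40, Rora, and Maf lower with NMU, where 5.47% of all genes passed. Gata3, the master factor of ILC2s, had treatment means of 570.2 (NMU) to 736 CPM (IL-33), and passed in none of these comparisons.

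Other cytokines of ILC2s rose with CGRP in 5 of 7 tested genes and with NMU in 4, against IL-33, with Il10 too low to test. The share of all genes that passed was 2.76% for CGRP and 0.187% for NMU. Il2, a T cell and ILC2 growth factor, rose from a mean of 3.33 CPM with IL-33 to 264 with CGRP and 140 with NMU. Csf2, encoding GM-CSF, rose from 1045 CPM to 2130.5 with CGRP and 3304 with NMU, and Areg, encoding the repair factor amphiregulin, passed with CGRP only (119 to 494 CPM). Il3 and Il17a were at 0 CPM in the IL-33 libraries and had means of 90.3 and 11.6 CPM with CGRP, and of 33.0 and 304 CPM with NMU. Among 8 receptors for the stimuli, 0 passed with CGRP against IL-33. With NMU, Calcrl, the CGRP receptor, rose (log2 fold change 2.52, adjusted P = 0.00853) and Il7r fell (-0.997, adjusted P = 0.0377).

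The genes around the members were compared as well. Within 250 kb of Il4, Il13, or Il5 lie 31 other annotated genes, of which 13 were tested and 0 passed the cutoff in any of 4 treatment comparisons. Of all genes, 0.0334% passed for IL-33 against IL-7, 2.76% for CGRP against IL-33, 0.187% for NMU against IL-33, and 5.47% for NMU against CGRP. At these shares, 0 of 13 does not set the neighbours apart from all genes. Among the 13, Leap2, Gdf9, Gm10447, and Sowaha reached 10 counts in only 2 to 5 libraries. The median log2 fold change of the 13 genes was 0.39 for CGRP against IL-33 and -0.43 for NMU against IL-33. Kif3a, next to Il4, had -2.17 and -0.50, and Rad50, between Il13 and Il5, had -0.27 and -0.43. Around Il9, 4 of 17 other genes were tested and 0 passed, and the same limit holds there. An antisense gene inside Il5, Gm12214, reached 10 counts in 0 libraries, and the use of strand in counting is not given in the sources used here.

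**Figure D5:**
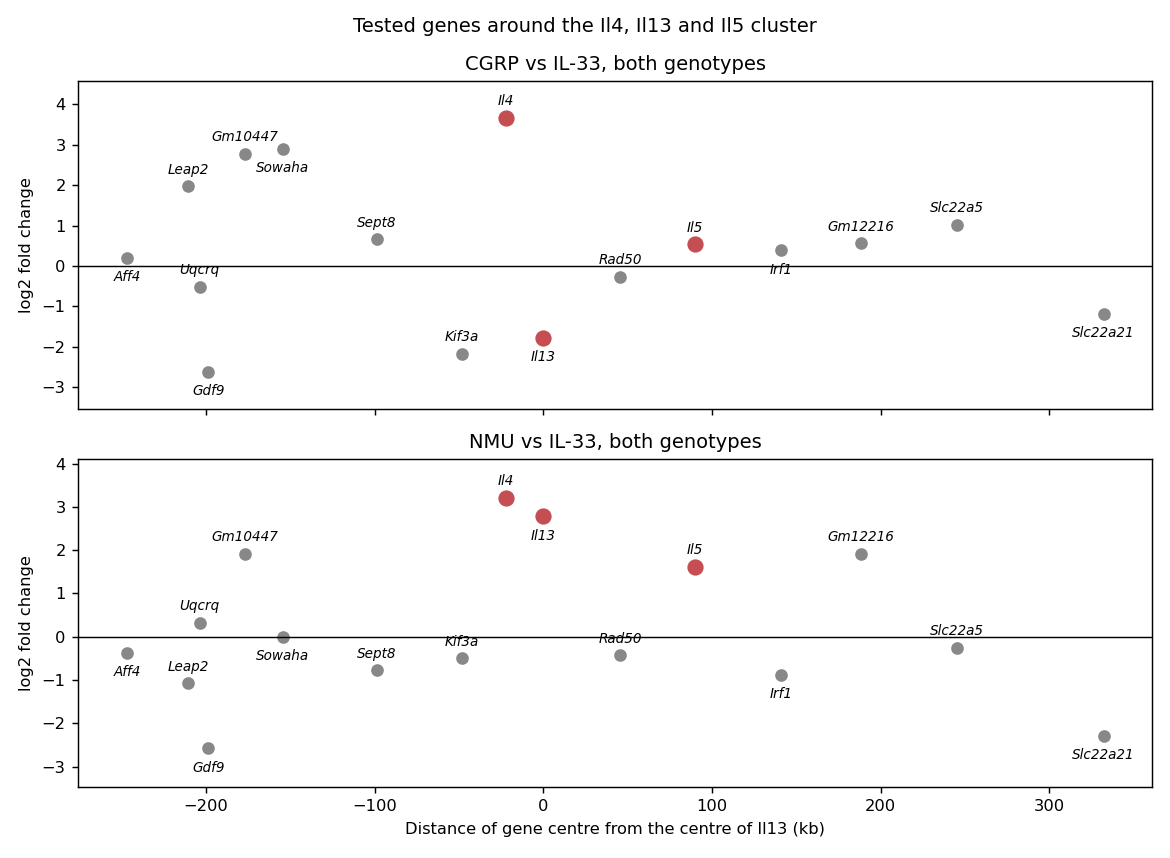
Log2 fold changes over both genotypes of the tested genes around the cytokine cluster, by distance in kb of each gene's centre from that of Il13, with the 3 cytokine genes in red. With NMU (below), Il4, Il13, and Il5 rise by 1.61 to 3.21. In either panel 0 of the 13 other genes passed the cutoff, where 2.76% (CGRP) and 0.187% (NMU) of all genes passed.

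As a description over the 16 libraries, which share treatments and depth, the genes whose log2 CPM was most like each member were listed by Pearson r. For Il4 they were Il2 (r = 0.93), Wdfy3, Gm25939, Gm47050, and the chemokine gene Cxcl1 (0.83). For Il5 they were Tigit (0.89), Cxcl2, Calcrl, Cxcl3, and Arg1 (0.86). For Il9 they were Il2ra, encoding the IL-2 receptor alpha chain (0.95), Set, Gimap9, Cysltr1, and Lilr4b (0.91). For Il13 they were Cxcl3 (0.96), Cd44, Dkc1, Lrrc58, and Irf4 (0.89). Among the members themselves, r was 0.76 for Il5 with Il13, 0.76 for Il9 with Il13, 0.65 for Il4 with Il5, 0.39 for Il5 with Il9, 0.10 for Il4 with Il13, and -0.15 for Il4 with Il9. When ranked by Spearman's rho, only 1 of the 5 genes stayed in the list of Il5, of Il9, and of Il13.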

How the data were processed

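The authors sequenced amplified cDNA of sorted ILC2s as paired-end reads, aligned them with HISAT2 to mm10, and deposited raw counts per Ensembl gene. The counting tool, its use of strand, and its annotation are not given in the sources used here. Of 51912 identifiers, 51633 had a symbol in GENCODE M21. Counts were scaled by TMM and fitted in edgeR 4.0.16 (R 4.3.3) with the quasi-likelihood F test over all 16 libraries and 8 group means. The 14979 genes passing filterByExpr were tested, with Benjamini-Hochberg adjustment over all of them, and a call needed a fold above 1.5 and an adjusted p under 0.05. Scripts were tested on simulated data. Ratios took 0.5 counts as pseudocount and an exact permutation test (scipy 1.17.1), a comparison added after seeing the data. Alternatives were RLE factors, total counts, other filters, DESeq2 1.42.0, a replicate block, fits of only the libraries compared, and leaving out each library. Named genes were the members, their lists, neighbours within 250 kb, and the 5 genes most like each member. The members and lists were chosen with earlier results of these data known.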

Additional observations from a re-analysis of the deposited data

How the results depend on the processing

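Of 80 member results, 80 kept their call and direction with RLE factors, 75 with total counts, 68 with no filter, 69 with DESeq2, and 78 with the replicate block. With only the libraries compared fitted, 66 kept theirs and 10 calls were lost, and the comparison over all treatments was not run. At least 10 counts in every library removed Il9 from the test. Replicate numbers gave no sign of pairing, since 0 of 28 pairs of groups had deviations correlated above 0.1. This check cannot exclude a small shared effect, because libraries of a group differed widely (common coefficient of variation 0.985). The replicate block lost Il13 for CGRP against IL-33 (-1.77, adjusted P = 0.0646) and Il4 for NMU against IL-7 (1.62, adjusted P = 0.0591). No filter and DESeq2 gained 11 calls each, at least 10 counts in every library 3, and total counts 1. Over both genotypes or between the genotypes they were Il4 for IL-33 against IL-7 (no filter -1.56, DESeq2 -1.57), Il9 there (no filter -0.85), and Il5 for Pac1-/- against WT with NMU (no filter 0.73, DESeq2 0.70), the others being within 1 genotype or interactions of Il9 (for NMU with no filter, adjusted P = 0.0277). The 10 calls lost with only the libraries compared were Il13 for CGRP against IL-33 (-1.75), Il9 for Pac1-/- against WT with CGRP (-5.61), Il4 for NMU against IL-7 (1.64, adjusted P = 0.0794), and 7 within 1 genotype. Total counts reversed Il13 with IL-7 (0.033) and Il5 with IL-33 (0.065) between the genotypes, and the interactions of Il4 for IL-33 (0.058) and of Il5 for CGRP (-0.15, and -0.055 with no filter). Leaving out 1 library at a time gave -2.10 to -1.54 for Il13 with CGRP against IL-33, 2.63 to 2.98 with NMU against IL-33, 0.45 to 0.66 for Il5 with CGRP against IL-33, and -0.17 to 0.26 for Il5 with IL-33 against IL-7 in Pac1-/- ILC2s. Between the genotypes it gave -0.52 to 0.59 (Il4), -0.69 to 1.36 (Il13), and -0.056 to 0.15 (Il5) with IL-7, -0.38 to 0.55 (Il4) and -0.43 to 0.052 (Il5) with IL-33, -1.07 to 0.080 (Il13) with CGRP, and -0.13 to 0.17 (Il4) over all treatments. For the interactions it gave -0.59 to 0.52 (Il4) and -0.83 to 1.22 (Il13) for IL-33, and -0.19 to 0.30 (Il5) for CGRP, while that of Il9 for CGRP passed without WT CGRP replicate 2 (-4.93, adjusted P = 0.0121) or Pac1-/- CGRP replicate 1 (-5.49, adjusted P = 0.045). The cause was not tested.

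Counts of genes called varied with the method. For CGRP against IL-33, 413 genes were called, beside 1290 with DESeq2, 845 with no filter, 608 with at least 10 counts in every library, and 199 with only its libraries. For NMU against IL-33 the counts were 28, 216, 116, 53, and 14, for NMU against CGRP 820, 1868, 1318, 1105, and 525, and for IL-33 against IL-7 5, 299, 199, 7, and 10. For Pac1-/- against WT with CGRP they were 16, 393, 183, 2, and 0. Leaving out 1 library moved these counts to 130 (without WT IL-33 replicate 1) to 489 for CGRP against IL-33, 8 (without WT NMU replicate 1) to 28 for NMU against IL-33, and 6 to 85 (without WT CGRP replicate 2) for Pac1-/- against WT with CGRP.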
